A study of Brassica juncea with 4 samples.

Results

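Among the 43603 probes of a Brassica oligonucleotide array, 94 (0.216%) were chosen as members by a detection pattern and by size. They gave a signal well above background in leaves of both BnCRY2aOE samples and in neither wild-type sample, a pattern that 389 probes had, and they also passed a size limit. The level, the log2 processed intensity minus the 75th percentile of its array, had to be at least 1 higher on either BnCRY2aOE array than on either wild-type array, so in all 4 pairings. That size limit alone was met by 0.808% of the 29949 probes that were well above background on both arrays of a genotype. The choice therefore used the signals of both genotypes, so that every difference between genotypes below is a description of the chosen probes and no test of them. The label of transcripts found only in BnCRY2aOE leaves was not borne out in full. For 82 of the 91 source sequences behind the members, the member was the sole probe, so this could not be checked. The array held 7 other probes of these sequences that were not members, each of a different sequence. Of these 7, 5 were well above background on at least 1 wild-type array. Of all probes, 67.5% and 69.3% were so on wild type replicates 1 and 2, so that count is not read as a result. Since most sequences could not be checked, the members are called probes here, not transcripts.

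The plants were Brassica juncea (Indian mustard), cultivar RLM-198, untreated and sampled as fully expanded leaves 45 days after sowing. One group was wild type and the other carried a transgene for overexpression of BnCRY2a, each with 2 biological replicates per the labels, 1 array each. The sources used here do not give the promoter of the transgene, the number of transgenic lines or the plants behind an array, so the spread shown is that between these samples. Probes carry an ID and a source identifier in the scanner files, with no gene names, descriptions or probe letters. No member could be given a gene name or a role, the leaf origin could not be checked with marker genes, and transgene expression was not analysed here.

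Cryptochromes are flavin-binding photoreceptors that plants use to sense blue light. Cryptochrome 2 is known from Arabidopsis for restraining hypocotyl growth in dim blue light and for promoting flowering in long days, in part by holding back the ubiquitin ligase complex that degrades light-signalling transcription factors. The comparison addressed how extra BnCRY2a alters leaf gene expression.

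On single arrays, 67.5% to 71.4% of all probes were well above background, and all 4 arrays lay on 1 slide. Wild type replicate 1 stood apart in the direction that matters for a detection pattern: 678 probes were well above background on every array but that one, against 198 for the other wild-type array and 370 and 167 for BnCRY2aOE replicates 1 and 2. With wild type replicate 1 left out of the selection, 186 probes met it, and with wild type replicate 2 left out, 356 did. Without BnCRY2aOE replicate 1 the number was 567, and without BnCRY2aOE replicate 2 it was 348. The 94 members are part of each of these larger sets by construction.

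Most members were faint even where they were detected. Their median level was -3.18 on BnCRY2aOE replicate 1 and -3.13 on BnCRY2aOE replicate 2, with ranges of -4.63 to 4.44 and -4.65 to 4.32. On wild type replicates 1 and 2 the medians were -6.35 and -6.30, and the highest member levels were -4.44 and -4.53. The lowest levels marked well above background were -4.57 and -4.65 on the wild-type arrays and -4.76 and -4.82 on the BnCRY2aOE arrays, so the faintest members lay near the edge of detection. On wild type 4 members had a level above that edge on at least 1 array without carrying the mark. In brightness units, the median background-subtracted intensity of the members was 28.1 and 23.8 in BnCRY2aOE, against 2.23 and 2.87 in wild type. It was 0 or lower for 21 members on wild type replicate 1 and for 15 on wild type replicate 2. It was so for none of the 94 on either BnCRY2aOE array, where the selection required a signal well above background. In extracts of whole leaves, fewer cells of a type and less RNA per cell cannot be told apart.

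Against other detected probes the members sat low. Among the 29245 probes well above background on both BnCRY2aOE arrays, the median mean level in BnCRY2aOE was -0.88, and that of the members was -3.22. The median member stood at percentile 14.4 of these probes, and 64 members (68.1%) lay under their lower quartile. Of the members, 6 were above the 75th percentile of the array on both BnCRY2aOE arrays, a position held by 34.1% of the detected probes.

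The brightest member was probe A_46_P012171, whose source sequence has the identifier Y11461. Its level was -6.25 and -4.74 on wild type replicates 1 and 2 and 4.44 and 4.32 on BnCRY2aOE replicates 1 and 2. The BnCRY2aOE arrays lay close together, far above both wild-type arrays, and the mean level of 4.38 ± 0.09 (SD, n = 2) stood at percentile 96.6 of the detected probes. Its background-subtracted intensity was 3.20 and 9.16 in wild type and 6279 and 4695 in BnCRY2aOE. Since no wild-type array measured it well above background, the change is given as a bound, which sets the BnCRY2aOE mean against wild-type levels that were first raised, where lower, to the dimmest level well above background on their array. By that bound the signal was at least 507-fold higher in BnCRY2aOE.

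Probe A_46_P370415, of source sequence CD822696, followed by the size of its bound. Its level was -4.68 and -4.82 in wild type and 2.36 and 2.87 in BnCRY2aOE, so the groups were separated by 7.04 on the log2 scale at their closest. The mean was 2.62 ± 0.36 (SD, n = 2) in BnCRY2aOE and -4.75 ± 0.10 (SD, n = 2) in wild type, and the bound was at least 149-fold. The member with the third largest bound, at least 148-fold, had BnCRY2aOE levels of 2.01 and 3.21 and wild-type levels of -6.33 and -6.49. The bounds of the next members were 64.1-fold, 56.9-fold and 36.6-fold, so the set thinned out quickly behind the first 3.

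Over all 94 members the bound ranged from 1.14-fold to 507-fold with a median of 2.61-fold. It reached 2-fold for 61 members, 8-fold for 20 and 100-fold for 3, and it was under 2-fold for 33. When every wild-type signal under the lowest level well above background was raised to that level before the selection, 47 of the 94 still met the size limit in all 4 pairings. The detection limit was near on the BnCRY2aOE side too. For 40 members at least 1 BnCRY2aOE level was less than 2-fold above the lowest level well above background on its array, and for 15 both were.

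The wild-type signals of the members were of more than 1 kind. Where a spot was not significantly brighter than background, its processed intensity was, within 1%, equal to the error that the scanner software gave it on both wild-type arrays, so it is a stand-in for a signal that was not measured. Both wild-type values were stand-ins for 29 members, 1 of them was for 25 members (17 on wild type replicate 1 and 8 on wild type replicate 2), and neither was for 40 members. The median fitted change, which takes stand-ins at face value, was 3.63, 2.54 and 2.32 on the log2 scale in these 3 groups. The median bounds were 2.74-fold, 2.13-fold and 2.81-fold, so the order of the groups was not the same on both measures.

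In the limma fit across 29949 probes, 35 of the 94 members had an adjusted p under 0.05 (Benjamini-Hochberg over all tested probes), while 0.197% of all tested probes were called higher in BnCRY2aOE. The members were selected on the same contrast, so nothing is read from that count. The 35 had a median bound of 7.28-fold (range 1.14 to 507), and the 59 others of 2.31-fold (range 1.15 to 13.5). Stand-in values on both wild-type arrays occurred in 20 of the 35 called members, and their part in the calls was not tested. Fits without 1 of the arrays leave a single array in a genotype, so their calls are not given.

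The 2 BnCRY2aOE arrays differed in their levels of single members. Across members, which are not independent replicates, the levels on these arrays correlated at r = 0.888, beside r = 0.968 across all probes well above background on both, and 8 probes were among the 10 brightest members of both. The median gap between the arrays was 0.51 on the log2 scale, and 21 members (22.3%) differed at least 2-fold, 12 of them higher on BnCRY2aOE replicate 1 and 9 on BnCRY2aOE replicate 2. Of all probes well above background on both arrays 10.1% differed that much, and of the 8801 such probes whose mean level lay between the quartiles of the members 10.4% did. The widest gap was 4.74-fold, in a member with levels of -3.71 and -1.46 in BnCRY2aOE and -6.62 and -5.205 in wild type. Its 2 BnCRY2aOE levels are far apart, and that both lie above the wild-type pair was required by the selection.

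The 94 members came from 91 source sequences, 3 of which held 2 member probes each. For 82 sequences the member was the sole probe on the array. The remaining 9 sequences had 19 probes in all, 12 of them members, which allows the signal of 1 sequence to be followed at more than 1 place. They are numbered here from 1 to 9 by the largest bound of their members.

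In sequences 1 and 2, those of A_46_P012171 and A_46_P370415, the second probe was also higher in BnCRY2aOE, by a smaller difference. It was well above background on all 4 arrays and so lacked the detection pattern. The second probe of sequence 1 had levels of -3.30 and -3.50 in wild type and 3.19 and 3.22 in BnCRY2aOE, a difference of 97.2-fold. That of sequence 2 stood at -3.74 and -3.74 in wild type and at 0.77 and 1.44 in BnCRY2aOE, a difference of 28.7-fold. The selection used the same contrast on the same sequences, so nothing is read from the separation of the groups. In both sequences the second probe had a measurable wild-type signal, while the member was not well above background there.

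Sequences 3 and 4 each held 2 probes, both of them members, so the selection itself fixed their pattern. In sequence 3 the members stood at -0.59 and -1.02, and at -1.38 and -1.96, on BnCRY2aOE replicates 1 and 2, with bounds of 13.9-fold and 7.66-fold. In sequence 4 they stood at -2.50 and -2.55, and at -1.52 and -1.93, with bounds of 4.24-fold and 7.28-fold.

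In sequences 5 and 9 the second probe showed neither the detection pattern nor a 2-fold difference. The member of sequence 5 had levels of -6.35 and -6.91 in wild type and -1.59 and -2.35 in BnCRY2aOE, while the other probe stood at -1.13 and -0.91 and at -0.50 and -1.002, a difference of 1.21-fold. The member of sequence 9 had levels of -6.76 and -6.92 in wild type and -3.91 and -3.80 in BnCRY2aOE, while the other probe stood at -1.55 and -1.46 and at -0.91 and -1.61, a difference of 1.18-fold. Both other probes were well above background on all 4 arrays, their genotypes overlapped, and they were brighter than the member on every array. Levels of different probes also depend on how well each binds, so their order does not measure transcript amounts.

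The last 3 sequences gave faint signals. In sequence 8 the other probe was well above background on wild type replicate 2 and on both BnCRY2aOE arrays and differed by 1.21-fold between genotypes. In sequence 6 the other probe was well above background on BnCRY2aOE replicate 1 alone. In sequence 7 the other probe was well above background on no array, beside 2 members with bounds of 1.18-fold and 2.13-fold. Over the 9 sequences, 7 probes were no members. Of these 7, 3 had a mean difference of at least 2-fold toward BnCRY2aOE, in sequences 1, 2 and 6. The one in sequence 6 was measured above background on 1 array alone. The selection used the same contrast on these sequences, so nothing is read from that count. Of the same 7, 4 were well above background on both wild-type arrays. On wild type replicates 1 and 2 singly, 67.5% and 69.3% of all probes were.

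The kinds of source identifier were represented in similar shares among the members and on the whole array. Identifiers of the form TC with digits belonged to 17 members (18.1%) and to 16.8% of all probes, and those of the form TA with digits to 16 members (17.0%) and to 16.4% of all probes. The other members carried other sequence identifiers, or, for 2 of them, the ID of the probe itself. Each member was printed as a single spot, so no member has a repeat within an array.

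The size limit removed most of the probes with the detection pattern. Without it, 389 probes were well above background on both BnCRY2aOE arrays and on neither wild-type array. Of these, 294 fell short of the limit and 1 had no level because its spot was marked as an outlier. Among the 294 were 31 whose lowest BnCRY2aOE level was at or under the highest wild-type level. The median of the smallest difference was 0.44 for the 389 and 2.33 for the 94 on the log2 scale. Just inside the limit was a member with levels of -4.70 and -4.89 in wild type and -3.67 and -3.54 in BnCRY2aOE, a smallest difference of 1.03. Just outside was a probe at -6.08 and -5.31 in wild type and -3.41 and -4.31 in BnCRY2aOE, whose smallest difference of 0.9985 missed the limit. Both have faint signals on all 4 arrays.

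With the genotypes exchanged, the same selection found 91 probes, of 167 with the mirrored detection pattern. Their median bound was 2.35-fold with a highest value of 198-fold, beside 2.61-fold and 507-fold for the members, and 18 of them against 20 members reached 8-fold. The share of the detection pattern that met the size limit was 54.5% there and 24.2% here. These are descriptions of sets chosen on the same 4 arrays, and the difference between them was not tested.

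The number of probes that met the selection also differed between processing alternatives. Quantile scaling and the authors' value table gave 93 and median scaling 94. Background correction by normexp, which models background and signal together and adds an offset, gave 28, and 14 with spots of marked surroundings left out of its fit. In the fit that gave 28, the background means of BnCRY2aOE replicates 1 and 2 were -41.2 and -392.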

How the data were processed

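Leaf RNA of 4 samples was labelled with Cy3, per the labels' protocols, and each sample had its own array. Per the file headers, the authors read the arrays with Agilent Feature Extraction 10.7.3.1, which gave the deposited processed intensity, background-subtracted intensity and 0 or 1 marks of each spot. The deposited value table holds log2 values whose scale and centring are unknown. Its column medians were 0.05, 0.00, -0.02 and -0.05, and it served as an alternative.

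From the intensity, control spots were left out, outlier spots, of which an array had 10 to 55, were dropped, levels were formed as described above and spots were averaged per probe. No spot was saturated. A probe counted as well above background if the share of its spots so marked was at least 0.5. Probes so marked on both arrays of at least 1 genotype, 29949 in all, were fitted with limma 3.58.1 in R 4.3.3 (lmFit, eBayes, genotype as the only term, two-sided), after testing on simulated data. Precision is limited by the number of arrays. The members, lists and tests were chosen with earlier results of these data known. Without gene names the gene and marker lists could not be used, and the rule for named probes came down to the 2 members with the largest bounds. Alternatives were other scalings, normexp, the value table, other detection and size limits, other variance models, a replicate block and leaving out each array.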

Additional observations from a re-analysis of the deposited data

How the results depend on the processing

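With median or quantile scaling, kept outlier spots or the value table of the authors, 93 or 94 probes met the selection, 34 or 35 were called by limma, and the other results stayed close, except that median scaling put the median BnCRY2aOE level at -0.77 because it is counted from the array median. Normexp was run on the raw median intensity minus the median intensity of the surroundings. It gave 28 members, 27 of them among the 94, with 0 called by limma. Their median log2 bound was 1.79 and their median level was -0.35. Under every setting the members were selected on the contrast that limma tests, so nothing is read from the counts of calls. On BnCRY2aOE replicates 1 and 2 normexp put the background mean at -41.2 and -392, against 1.51 and 2.65 on wild type replicates 1 and 2. The median log2 change over all tested probes was 0.32 with normexp, beside -0.02 in the main fit. With spots of marked surroundings also left out of the normexp fit, an alternative chosen after seeing the data, the BnCRY2aOE means were 3.12 and 1.78. There were then 14 members, 3 calls, a median log2 bound of 2.16 and a median level of 0.028. By construction its offset of 50 shrinks the fold of dim signals. A size limit of 1.5 gave a median log2 bound of 1.81. No size limit gave 389 probes and 0.45, and raised dim signals gave 47 members, 21 calls and 2.80. Calls were 10 without the filter on dim probes, 23 with an intensity trend in the variance and 14 with a replicate block. The numbers are not said to pair samples, and same-numbered deviations correlated at r = -0.16, so the crossed block was also run, with 48 calls. Leaving out 1 array gave 186 to 567 members, 8 to 120 calls, median log2 bounds of 0.73 to 1.59 and median levels of -3.88 to -2.96, where the single array left is taken to vary like the other genotype. The value table has no common floor, so no bound or level was taken from it. The causes of the other moves were not tested. Because wild-type signals lay near background, the changes of the members are given as bounds. In 1 member both wild-type levels were above the lowest level well above background on their arrays. Its bound equals its plain difference.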
